A study of Mus musculus with 3 samples.

Results

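Small nuclear RNA (snRNA) genes encode the RNA cores of the particles that remove introns. Of 1383 genes typed as snRNA in the annotation, 37 (2.68%) had an expected count, an estimate of reads that need not be whole, of 1 or more in at least 1 of 3 libraries of macrophage cytosolic RNA. These 37 were selected on those counts, so their being counted is the rule itself and no test was made of it. Among all 55536 annotated genes 41.2% passed the same threshold, and 45% did among genes to which the quantifier gave an effective length above 0. The other 1346 snRNA genes were at exactly 0 in every library. The 37 genes fell into 19 copies similar to U1, 11 similar to U2, the U12 gene Rnu12, a pair of 141-base genes similar to none of the named U1, U2, U5, U6, U7, U11 and U12 genes, and 4 genes of no family with at most 2 counts in a library.

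Most snRNAs of the major spliceosome are copied by RNA polymerase II, exported to the cytoplasm, given a ring of 7 Sm proteins and a modified cap there, and carried back into the nucleus. U1 pairs with the start of an intron and U2 with the branch point. U4, U5 and U6 join later, U11 and U12 do the work of U1 and U2 at a rare class of introns, and U7 processes histone mRNA ends. In mammals U1 and U2 are each encoded by many near-identical copies, and numerous further copies in the genome are regarded as pseudogenes. At steady state most snRNA is nuclear, and its precursors pass through the cytoplasm.

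The libraries held total RNA, depleted of ribosomal RNA, of the cytosolic fraction of bone-marrow-derived macrophages, cells grown in culture from the marrow of C57BL/6J mice, whose age is not given. The cells had received 100 ng/ml Lipid A, the part of lipopolysaccharide that Tlr4 senses, for 12 hours, then had 12 hours without it, and were harvested 40 minutes after a second dose of 100 ng/ml. All 3 libraries are replicates of this 1 group, so levels are described and no effect of treatment or of fraction was measured. They share a donor label, and nothing says that they came from different animals, so the spread between them may be technical. Replicates 1, 2 and 3 had 38197192, 46327891 and 38685666 expected counts on annotated genes. The macrophage markers Adgre1, Csf1r, Cd68, Itgam, Lyz2 and Mertk had mean levels from 40.6 to 3020 TPM (counts per effective length, scaled to the same sum in each library), and all 12 markers of T cells, B cells, neutrophils and stroma were below 1 TPM in every library.

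The U1 sequences below carried most of the U1 counts and show how little the copies differ. They are the annotated transcripts, with T for U, on the mm10 build. In Rnu1a1 (chr11:87422867-87423030, plus strand) the capitals mark bases 3 to 11, which pair with the start of introns, and the letters of the Sm protein binding site at bases 126 to 132. In Gm22513 (chr12:54696782-54696945, plus strand) and Rnu1b1 (chr3:96359953-96360117, minus strand) they mark bases that differ from Rnu1a1. In Gm25890 (chr3:96486555-96486719, minus strand) they mark the base that differs from Rnu1b1.
Rnu1a1: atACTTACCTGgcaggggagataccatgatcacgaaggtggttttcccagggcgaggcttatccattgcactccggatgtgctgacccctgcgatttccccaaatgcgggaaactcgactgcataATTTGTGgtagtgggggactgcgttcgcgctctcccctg
Gm22513: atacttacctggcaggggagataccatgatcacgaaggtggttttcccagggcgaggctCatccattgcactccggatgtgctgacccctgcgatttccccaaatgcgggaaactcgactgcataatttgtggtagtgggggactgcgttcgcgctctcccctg
Rnu1b1: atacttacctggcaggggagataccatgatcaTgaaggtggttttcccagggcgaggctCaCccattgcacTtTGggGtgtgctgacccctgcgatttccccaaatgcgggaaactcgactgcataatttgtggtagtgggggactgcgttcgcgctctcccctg
Gm25890: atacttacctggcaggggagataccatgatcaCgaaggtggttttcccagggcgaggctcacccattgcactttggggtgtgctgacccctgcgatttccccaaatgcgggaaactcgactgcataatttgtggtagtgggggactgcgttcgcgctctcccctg
Counted from the 5′ end of Rnu1a1, Gm22513 carries T60C alone. Rnu1b1, the named copy of the U1b form, carries C33T, T60C, T62C, C73T, C74G and A77G and 1 inserted base, and Gm25890 carries the same changes except C33T.

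The U2 sequences shown, with their identical copies, carried most U2 counts. In Rnu2-10 (chr11:101658238-101658428, plus strand) the capitals mark bases 33 to 38, which pair with the branch point, and the Sm site letters at bases 99 to 105. In Gm23444 (chr11:83271498-83271688, plus strand), Gm24497 (chr1:72244213-72244403, plus strand) and Gm25939 (chr1:72255008-72255198, plus strand) they mark bases that differ from Rnu2-10.
Rnu2-10: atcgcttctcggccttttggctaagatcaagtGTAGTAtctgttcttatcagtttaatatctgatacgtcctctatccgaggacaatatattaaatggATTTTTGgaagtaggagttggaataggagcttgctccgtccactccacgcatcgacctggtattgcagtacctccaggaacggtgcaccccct
Gm23444: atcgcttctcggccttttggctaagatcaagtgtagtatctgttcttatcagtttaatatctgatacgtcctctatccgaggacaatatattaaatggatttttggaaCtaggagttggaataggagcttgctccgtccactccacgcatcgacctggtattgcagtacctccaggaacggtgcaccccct
Gm24497: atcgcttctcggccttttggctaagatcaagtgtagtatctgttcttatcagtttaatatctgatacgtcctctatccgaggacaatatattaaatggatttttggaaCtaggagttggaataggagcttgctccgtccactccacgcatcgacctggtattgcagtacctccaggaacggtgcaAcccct
Gm25939: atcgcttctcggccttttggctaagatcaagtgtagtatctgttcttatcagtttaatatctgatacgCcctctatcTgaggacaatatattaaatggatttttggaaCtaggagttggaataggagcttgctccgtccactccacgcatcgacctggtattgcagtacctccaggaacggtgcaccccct
Counted from the 5′ end of Rnu2-10, all of Gm23444, Gm24497 and Gm25939 carry G109C, a few bases past the Sm site. Gm24497 adds C186A, and Gm25939 adds T69C and C78T.

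The remaining sequences are those outside the U1 and U2 families that were counted in all 3 libraries. In Rnu12 (chr15:83149644-83149794, plus strand) and Gm24265 (chr5:115489459-115489599, plus strand) the capitals mark the Sm site letters. In Gm24407 (chr5:115490254-115490394, plus strand) they mark G88A and C99A, its differences from Gm24265 counted from the 5′ end.
Rnu12: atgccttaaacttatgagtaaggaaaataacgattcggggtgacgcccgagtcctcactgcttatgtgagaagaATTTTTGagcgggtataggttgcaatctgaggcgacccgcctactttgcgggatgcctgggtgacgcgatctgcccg
Gm24265: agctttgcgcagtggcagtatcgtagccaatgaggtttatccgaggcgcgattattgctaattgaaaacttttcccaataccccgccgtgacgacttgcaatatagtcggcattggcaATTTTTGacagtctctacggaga
Gm24407: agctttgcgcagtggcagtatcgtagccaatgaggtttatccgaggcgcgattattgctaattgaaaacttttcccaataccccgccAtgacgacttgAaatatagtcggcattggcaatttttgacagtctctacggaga

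Length set which snRNAs could be counted at all. The gene table divides by an effective length, the number of places a library's fragments could start in a transcript, and this was 0 in every library for all 1093 snRNA genes of 125 bases or fewer (79.0% of 1383). Of the 290 longer genes the 37 counted ones were 12.8%, and they were 126 to 191 bases long. A 191-base U2 copy had effective lengths of 17.4, 17.6 and 14.9 in replicates 1, 2 and 3, and a 164-base U1 copy had 7.79, 7.67 and 6.35. All 10 U5-like, 546 U6-like and 50 U7-like genes were at or under 125 bases, so their absence from the gene table is no measurement of those RNAs. Levels are therefore given mainly as CPM, the expected count scaled to 1e+06 counts on annotated genes, which is not divided by these small numbers.

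**Figure D1:**
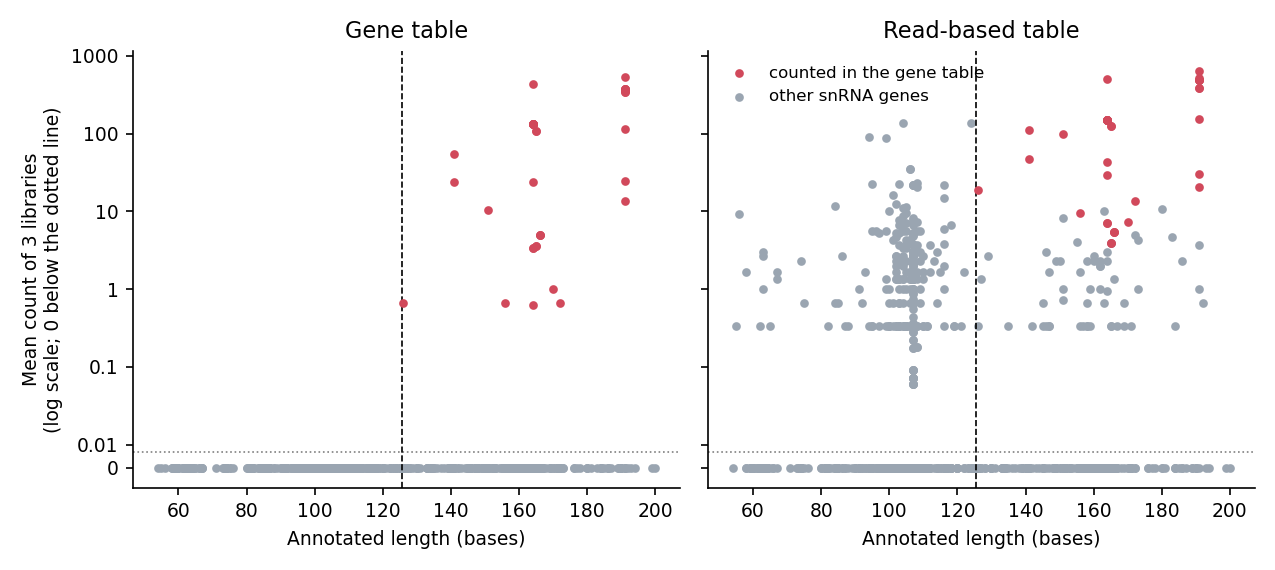
Mean count of 3 libraries (log scale) against annotated length in bases for 1383 snRNA genes, in the gene table (left) and in the read-based transcript table (right). Red points are the 37 genes counted in the gene table, grey points all others, and the dashed line stands between 125 and 126 bases; left of it the gene table holds no count, while the read-based table does.

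Together the snRNA genes held a small share of each library. Their counts were 5620, 2799 and 6446 in replicates 1, 2 and 3, which is 0.0147%, 0.00604% and 0.0167% of all expected counts. The exact 95% binomial intervals of these shares were 0.0143 to 0.0151%, 0.00582 to 0.00627% and 0.0163 to 0.0171%, which cover counting error only. Replicate 2 was thus below the others by far more than counting error. In bulk RNA, fewer cells of a type and less RNA per cell cannot be told apart. The summed level of snRNA genes was 147, 60.4 and 167 CPM, against 102, 41.7 and 108 CPM for small nucleolar RNA genes, whose products guide rRNA modification in the nucleolus. The 7SK RNA gene Rn7sk, typed apart from snRNA, had 7653, 7457 and 12163 CPM.

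U2-like and U1-like RNAs held nearly all of these counts. The 11 U2-like genes summed to 93.1, 43.8 and 107 CPM, a mean of 81.4 ± 33.3 (SD, n = 3) and 66.7% ± 5.01 of snRNA counts. The 19 U1-like genes summed to 50.3, 15.6 and 57.1 CPM, a mean of 41.0 ± 22.2 and 31.5% ± 4.82 of snRNA counts. In every library the U2 sum was above the U1 sum, although the ranges over libraries overlap. Per kilobase of annotated length the level of U2 was 487, 229 and 562 CPM per kb and that of U1 307, 95.3 and 348 CPM per kb, a ratio of 1.59, 2.40 and 1.61. On the TPM scale, which divides by effective length, the order turned round in 2 libraries: U2 had 3723, 1436 and 4193 TPM and U1 4463, 1171 and 5205 TPM. The order of U1 and U2 per molecule is therefore not settled by these tables. The U2 to U1 ratio was highest in replicate 2 on each of these scales.

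**Figure D2:**
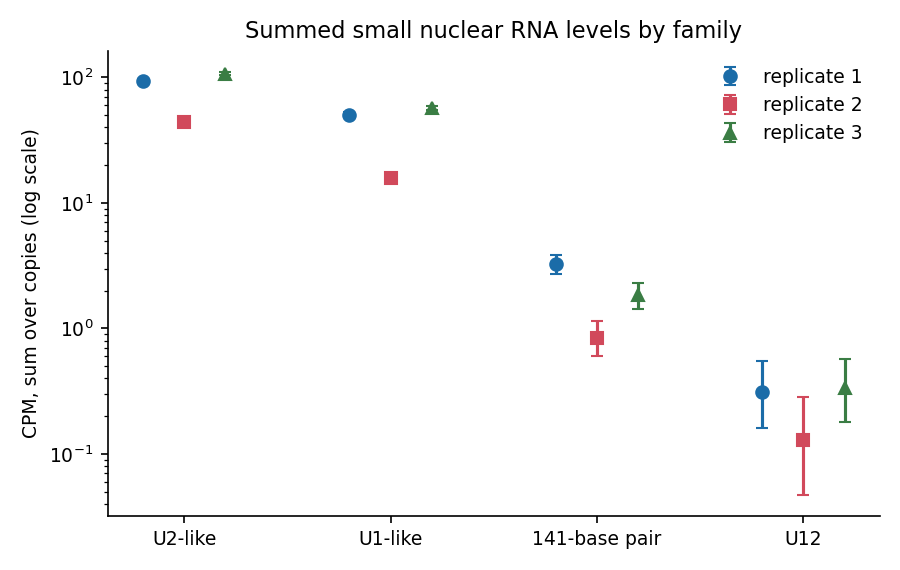
Summed CPM of each snRNA family (log scale) in each of 3 libraries, with exact 95% binomial intervals as bars. U2-like and U1-like sums lie between 15.6 and 107 CPM, the 141-base pair and U12 below 3.25 CPM, and replicate 2 is lowest in all 4.

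Among U1 genes the standard form was the main one. Rnu1a1 and its 6 identical copies had 1149, 429 and 1182 counts in all. Identical copies cannot be told apart by reads, and the quantifier gave each the same value, 164, 61.3 and 169 counts. These 7 copies held 57.5% ± 3.47 of U1 member counts (SD, n = 3). Gm22513, which T60C sets apart, had 495, 183 and 615 counts, or 26.3% ± 1.37. Its posterior mean count, an estimate that averages over possible assignments of shared reads, was the same in each library. The 7 identical copies had lower posterior means, 1021, 355 and 914 counts in all, and held 54.4% ± 2.24 in the read-based table. Their share thus depends on the estimate by more than its SD shows. Every other single U1 copy was listed lower than Gm22513. For the identical copies this rests on the even split, so which single copy was highest is not known.

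The U1b form was the minor one. All genes nearest to a Rnu1b copy summed to 255, 94.0 and 362 counts, or 14.2% ± 1.89 of U1 counts, against 85.8% ± 1.89 for genes nearest to Rnu1a1. The named genes Rnu1b1 and Rnu1b2, which are identical, had 3.06, 2.5 and 5.11 counts each, and Rnu1b6 had 6.38, 3.3 and 5.12. Gm22614 and Gm25890, identical to each other, held most of the form with 230, 79.1 and 336 counts together. U1b was thus counted mostly from these predicted genes and less from the copies that carry the name. The base at position 60 divided U1 members more evenly, as sequences with T60C held 39.0%, 38.2% and 44.2% of their counts.

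A further 3 U1 copies were uncertain or low. Gm24305, which carries A26G, had 21.4, 18.9 and 31.0 counts. Gm24924 and Gm26244, both 99.4% identical to Rnu1a1, were at 0 in replicates 1 and 2 and had 10.04 counts each in replicate 3, while their posterior means were 60.5, 40.6 and 152 for Gm24924 and 66.4, 32.2 and 135 for Gm26244. Reads of these copies and of Rnu1a1 are thus assigned with little certainty.

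Among U2 genes, copies with G and with C at position 109 were counted about equally. Rnu2-10 and its 3 identical copies Gm23849, Gm23971 and Gm24950 had 1695, 982 and 1887 counts in all, 47.2% ± 1.52 of U2 member counts (SD, n = 3). The 5 genes with G109C held 50.4%, 50.8% and 53.8%, a mean of 51.7% ± 1.88, and 51.2% ± 1.65 in the read-based table. The total of U2 therefore differed 2.45-fold between libraries while the balance of these forms stayed within 4 percentage points.

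Within the G109C copies the gene table could not place the reads. Gm23444 and its identical copy Gm23472 had 558, 0 and 464 counts each, and Gm24497, which differs from them by C186A, had 4.46, 610 and 464. The 3 genes together had 1120.0, 610 and 1393 counts, lowest in replicate 2 and highest in replicate 3 like Rnu2-10 and its copies. Posterior means of Gm24497 were 297, 341 and 443, and its read-based counts were 447, 386 and 736. The 3 estimates of how shared reads split thus differ for the single genes, and any count below that rests on the split is named.

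The other U2 sequences were lower than the Rnu2-10 sequence and had less uncertain counts. Gm25939 had 519, 339 and 726 counts, a mean of 13.2 ± 5.74 CPM, against 38.1 ± 14.8 CPM for Rnu2-10 and its identical copies together. Gm25360 had 152, 82 and 115 counts. Gm26316, a copy with C170T alone, had 1.39 CPM in replicate 1, against 0.161 in replicate 2 and 0.328 in replicate 3, and the read-based table showed the same high value in replicate 1 with 68.6 counts against 8.33 and 14.9. Gm22973, with 9 substitutions against Rnu2-10, had 17, 8 and 16 counts.

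**Figure D3:**
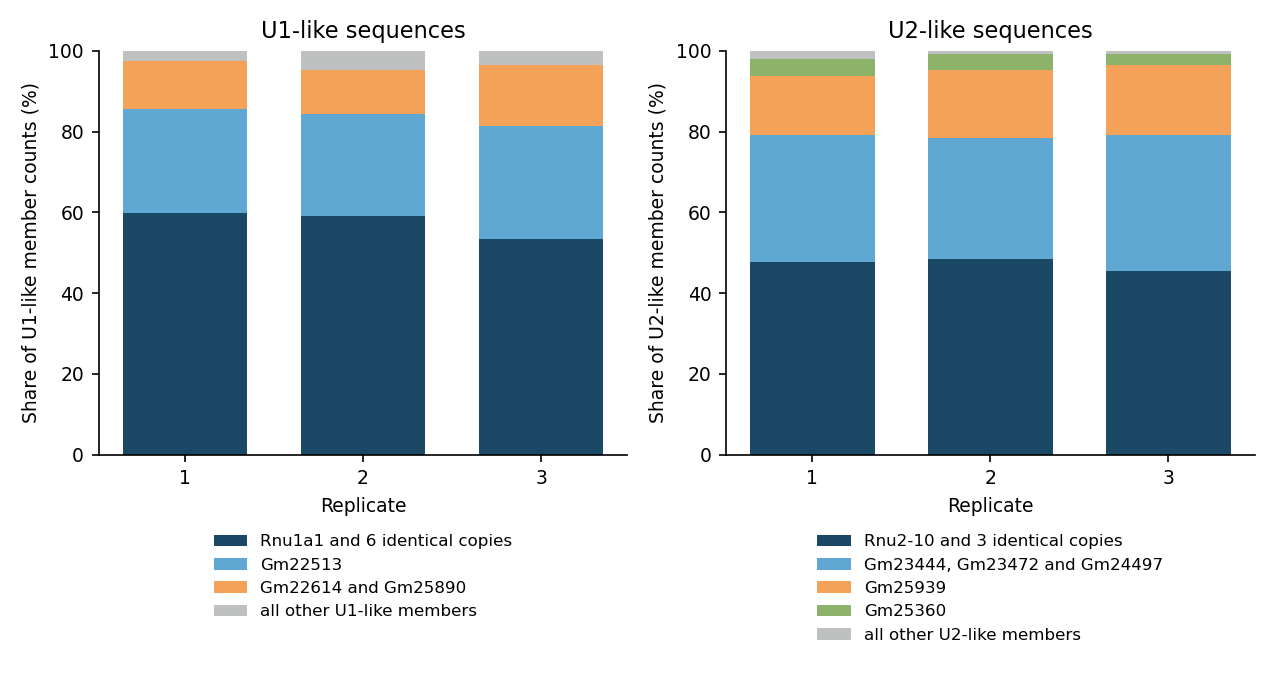
Share of U1-like (left) and U2-like (right) member counts held by groups of copies in each of 3 libraries, as stacked bars from 0 to 100%. Rnu1a1 and its identical copies hold 53.5 to 59.8% of U1, and Rnu2-10 and its identical copies 45.5 to 48.4% of U2.

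The 141-base pair had a different order over libraries from the U1 and U2 sums. Gm24265 had 87, 26 and 50 counts and Gm24407 had 37, 13 and 21. Their sum was 3.25, 0.842 and 1.84 CPM, with exact 95% intervals of 2.70 to 3.87, 0.599 to 1.15 and 1.43 to 2.31 CPM that do not overlap. These intervals cover counting error only. The pair was highest in replicate 1, whereas U1 and U2 sums were highest in replicate 3. Some lower U1 and U2 copies, such as Gm25360, Gm26316, Gm22973 and Rnu1b6, were also highest in replicate 1. This order is thus not particular to the pair. Gm24265 held 69.1% ± 2.10 of the pair's counts. The annotation gives these genes no snRNA name, and since no gene named for U4, U4atac or U6atac was among the named snRNAs, likeness to those RNAs was not examined.

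U12 was near the limit of counting. Rnu12 had 12, 6 and 13 counts, which is 0.314, 0.130 and 0.336 CPM with exact 95% intervals of 0.162 to 0.549, 0.0475 to 0.282 and 0.179 to 0.575 CPM. At this depth the intervals are wide and overlap. U1 was 147, 111 and 156 times and U2 234, 267 and 252 times the level of U12 per kilobase, and by TPM 95.2, 70.1 and 97.6 times and 79.4, 86.0 and 78.6 times. In the read-based table Rnu12 had 104, 61 and 133 counts, several times its count in the gene table, or 2.23, 1.11 and 2.69 CPM. There the ratio of TPM to the U12 family was 18.2, 11.1 and 16.6 for U1 and 26.1, 24.4 and 24.0 for U2, so the size of these ratios depends on the quantifier. Rnu11, whose RNA works with U12, was at 0 in both tables in every library, which allows up to 3 counts, or 0.0785, 0.0648 and 0.0775 CPM. Its effective length was 1.87, 1.72 and 1.40, so this says little about its level.

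The genes just inside the threshold had almost no counts in the gene table. Gm23238, a U1-like copy, had 1.87 counts in replicate 1 and 0 in the others, Gm22214 had 2 in replicate 1 only, and Gm24041 had 2 in replicate 3 only. The read-based table gave them more: 68.9, 11.0 and 50.8 counts for Gm23238, 20, 4 and 17 for Gm22214, and 10, 2 and 17 for Gm24041. The genes outside it had no counts at all in the gene table, the first of them by name being Gm22003, Gm22004 and Gm22005. Counts were 1 or more in all 3 libraries for 28 of the 37 genes. This number rests on uncertain splits of shared reads. Gm23444 and Gm23472 are left out by their 0 in replicate 2, where their posterior means were 117 and 152. Gm24924 and Gm26244 are left out by their 0 in replicates 1 and 2, although their posterior means were above 0.

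**Figure D4:**
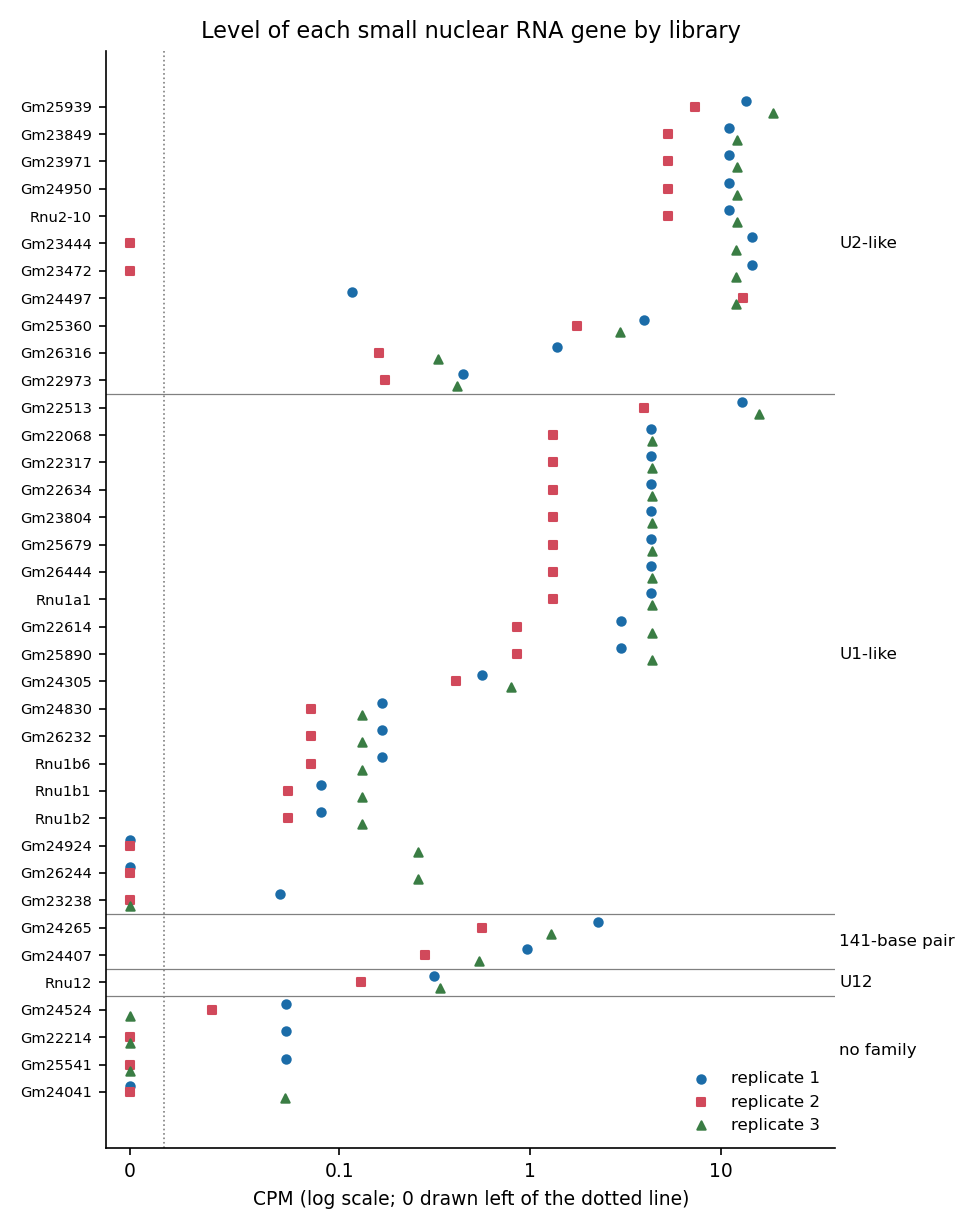
CPM (log scale, with 0 drawn left of the dotted line) of each of the 37 snRNA genes in each of 3 libraries, grouped by family. Identical copies share their values, and the split between Gm23444, Gm23472 and Gm24497 changes from library to library.

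Counted copies were closer in sequence to the named snRNAs than uncounted copies of the same family. Shared reads can give a count to a copy because it is nearly identical to an abundant one. Part of this difference, and of the motif counts below, may thus follow from the rule that chose the genes. U1 members were 97.6% or more identical to a named U1, whereas the other 49 U1-like genes ranged from 80.1 to 98.8% with a median of 85.1%. U2 members were 95.3% or more identical to Rnu2-10, and the other 6 ranged from 80.1 to 99.0% with a median of 90.1%. The letters ACTTACCTG, which pair with the start of introns, were in all 19 U1 members and in 21 of the other 49, and in 3.98% of all 1383 snRNA transcripts. The letters GTAGTA, which pair with the branch point, were in all 11 U2 members and in 4 of the other 6, and in 3.69% of all snRNA transcripts. A Sm site, searched as ATTTTTG or ATTTGTG, was in all 19 U1 and 11 U2 members, in Rnu12, in both genes of the pair and in 2 of the 4 genes of no family. It was in 31 of the other 49 U1, 4 of the other 6 U2 and 2 of the other 3 U12 genes, and in 16.1% of all snRNA transcripts. Only the RNA strand was searched for exact letters, and in the sequences shown these motifs do not overlap. Members of a family share most of their sequence, so these counts are not independent.

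The counted genes lay in few places. With neighbours up to 200 kb apart joined, the 37 genes formed 16 loci, and 6 of these held 27 genes. A locus at chr12:54696782-54738622 held 7 U1 genes and 23.8%, 18.2% and 23.1% of snRNA counts in replicates 1, 2 and 3. That share is set by the even split between identical copies, since 5 of the 7 are identical to Rnu1a1 and Gm22068, which lie elsewhere. A locus at chr11:101604850-101658428 held 5 U2 genes, among them all 4 copies of the Rnu2-10 sequence, and 31.1%, 35.3% and 29.5%. The U2 genes Gm25360, Gm23472, Gm24497 and Gm25939 lay at chr1:72226240-72255198, and all 4 carry G109C, which no gene of the chromosome 11 locus with Rnu2-10 does. All 7 U1b genes lay at chr3:96328425-96488893. Rnu1a1 and its identical copy Gm22068 lay in Tex14 on chromosome 11, and the pair lay 0.935 kb from end to end on chromosome 5. Of the 253 uncounted snRNA genes with an effective length above 0, 1 was within 200 kb of a counted gene. Of the 37 counted genes 20 are identical to another counted gene, and identical copies pass the threshold together. Part of this grouping may thus follow from the rule that chose the genes.

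Host genes could lend reads to a few copies. Of the 37 genes 23 overlapped no other annotated gene, and 1, Gm23238, overlapped an exon of one, AC134906.1. Only 5 lay in a protein-coding gene that reached 1 TPM in each library (13.5%), against 42 of 253 uncounted genes (16.6%). Gm24924 lay in Ss18 at a mean of 9.05 TPM, Gm26244 in Rock1 at 15.2 TPM and Gm24041 in Tmem65 at 28.8 TPM, each on the strand of its host. Gm24524 lay in Stap1 at 7.91 TPM on the host's strand and Gm22214 in Rasa4 at 71.2 TPM on the other strand. None of these 5 exceeded 10.04 expected counts, although the posterior means of Gm24924 and Gm26244 given above are higher. Genes in no other gene held 67.1%, 52.7% and 61.3% of snRNA counts in replicates 1, 2 and 3, but 55.6%, 56.1% and 53.3% in the read-based table. The gene-table values move with the split between Gm23444, which lies in no gene, and Gm23472 and Gm24497, which lie in D230017M19Rik.

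The read-based table, made without an alignment file, gave counts to short copies as well. It held 8943, 4165 and 9802 snRNA counts, on 320 genes with 1 or more in a library, 227 of them of 125 bases or fewer. Short copies took 16.5%, 15.1% and 15.6% of its snRNA counts. U6-like genes, the family of the catalytic snRNA, summed to 469, 162 and 477 counts over 546 genes, U5-like genes to 46.3, 41.7 and 61.2 over 10 genes, and U7-like genes to 7, 1 and 7. Rnu6 itself was at 0, and Rnu5g had 12.3, 15.4 and 17.3 counts. In replicate 2 the U6 sum was far below that of the others, and the U5 sum was nearer to them.

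Some of the highest short copies sat in genes expressed in these cells. Of 9 short copies with 10 or more read-based counts in every library, 5 lay in a detected protein-coding gene, 3 on its strand and 2 on the other, and 2 lay in no gene. The share of all short snRNA genes in such a gene was not worked out, so no link to host expression follows. Gm22108 and Gm24798 had the same 56, 11 and 39 counts, so they may not be separate observations. Gm25605, a 124-base gene in Aoah on the same strand, had 210, 60 and 147 counts, and Aoah, which encodes an enzyme that removes fatty acids from lipopolysaccharide, had a mean of 135 TPM. Gm25549 in Mapkapk2 had 137, 22 and 112 counts, and Gm24996 in Nfe2l2 had 111, 32 and 124. Whether these reads came from the host RNA was not tested. Gm25047 on chromosome X, in no annotated gene, went the other way with 113, 194 and 109 counts, highest in replicate 2.

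Replicate 2 was low across nearly all snRNAs. As a measure of this, the mean log2 CPM of the other 2 libraries was subtracted from that of a library, and the result was centred on the median of 9118 detected protein-coding genes. For the sum of snRNA genes this deviation was 0.58, -1.39 and 0.80 in replicates 1, 2 and 3. It was -1.80 in replicate 2 for U1, -1.21 for U2, -1.55 for the pair and -1.29 for U12. Of 28 counted genes with a mean of 0.1 CPM or more, 25 were lower in replicate 2 by 1 or more on this log2 scale, against 16.4% of all 15950 genes at that level. Identical copies repeat each other in that count: they come from 16 distinct sequences. The count also takes Gm23444 and Gm23472 as low and Gm24497 as high in replicate 2, which rests on their uncertain split. With these 3 genes taken as 1 sum, a choice made after their values were seen, 12 of 15 sequences were lower by 1 or more and all 15 were lowest in replicate 2. Their deviations ranged from -2.10 to -0.72, with a median of -1.29, against -1.49 over the 28 genes and -0.07 over all genes.

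Some RNAs known to stay in the nucleus moved with the snRNAs, while other nuclear RNAs moved less. Malat1, a long RNA of nuclear speckles, had 8134, 2779 and 10822 CPM, and Neat1, the scaffold of paraspeckles, had 885, 236 and 816 CPM, deviations of -1.78 and -1.87 in replicate 2. Kcnq1ot1, an imprinted nuclear RNA, deviated by -1.86 and the sum of small nucleolar RNA genes by -1.35. Small RNAs of the Cajal body, where snRNAs are modified, deviated by -0.75. Abundant RNAs known for work outside these bodies differed less: Rn7s1 and Rn7s2, which encode the RNA of the signal recognition particle, deviated by 0.37 each in replicate 2, Gapdh by 0.04 and Actb by -0.32. Rn7sk at -0.39, Tug1 at -0.30, Rmrp at -0.50 and Rpph1 at -0.04, all partly or mainly nuclear, also differed less than snRNAs. The part of nuclear RNA content in the low snRNA values of replicate 2 was not tested.

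**Figure D5:**
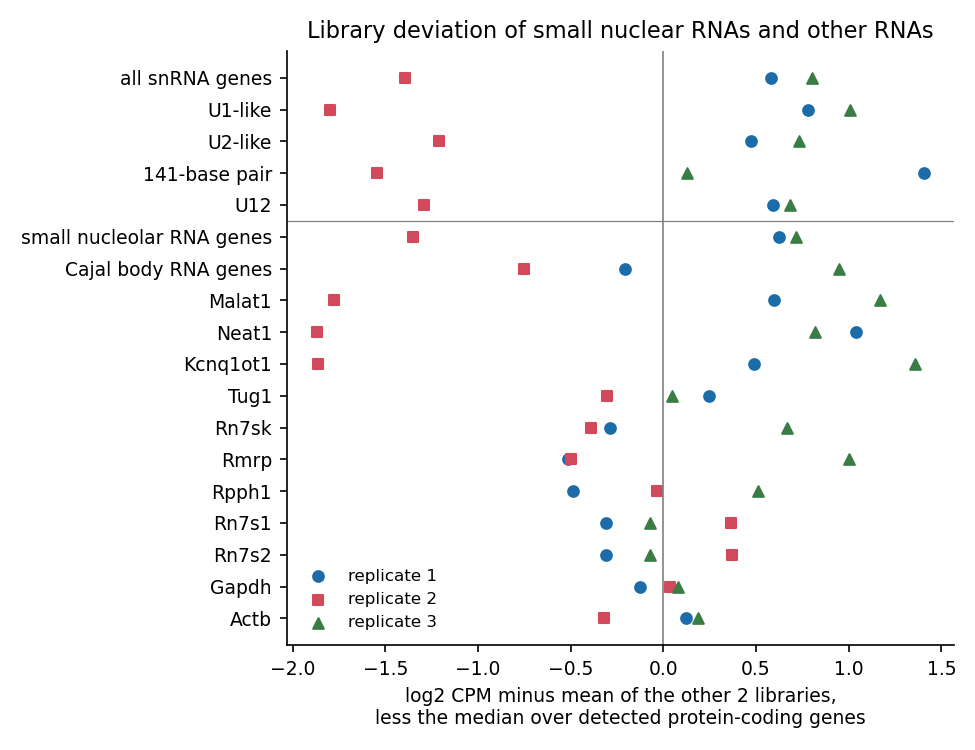
Deviation of each of 3 libraries (log2 CPM minus the mean of the other 2, centred on detected protein-coding genes) for snRNA sums, above the line, and for other RNAs. Replicate 2 lies between -1.80 and -1.21 for the snRNA sums and at -1.78 for Malat1, against -0.39 for Rn7sk and -0.32 for Actb.

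The spread between libraries was wide for the snRNA genes. The biological coefficient of variation was estimated gene by gene for genes with enough counts in every library. It had a median of 0.593 over the 19 snRNA genes fitted, from 0.256 to 0.716, against 0.0876 over all 12752 genes fitted. That all-gene median is not matched for level, and the snRNA median is the value shared by Rnu1a1 and its identical copies. The filter dropped Gm23444, Gm23472, Gm24497 and Gm26316, each low in at least 1 library, so the range is cut. With no filter the snRNA median was 0.578 and the highest value 4.41. Without replicate 2 the median of the snRNA genes was 0.00988, the lowest value the estimate can take, from a fit to the other 2 libraries alone and over copies that repeat each other. The family sums of replicates 1 and 3 still differed beyond counting error, with exact 95% intervals of 48.1 to 52.6 and 54.8 to 59.6 CPM for U1 and of 90.1 to 96.2 and 104 to 111 CPM for U2. Rnu1a1 had 0.593, Gm22513 0.647, Rnu2-10 0.415 and Gm25939 0.440. The trend fitted over all genes gave 0.303, 0.178, 0.189 and 0.162 at the levels of these genes, in the same order. Gm24305, at 0.256, was below its trend value of 0.346, and every other fitted snRNA gene was above its own.

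Genes for the proteins of snRNA particles were nearly all expressed. The medians of their lists did not share the low values of replicate 2, on a scale centred on protein-coding genes. A level of 1 TPM was reached in every library by 91 of 96 listed genes, against 41.4% of 22028 protein-coding genes. Detected were 7 of 8 genes of Sm proteins, which form the ring on U1, U2, U4 and U5, with a median of 9.88 TPM. Snrpe led with 33.0, 31.6 and 28.2 TPM in replicates 1, 2 and 3, followed by Snrpb at 25.4 ± 2.51, Snrpd1 at 17.8 ± 0.632 and Snrpd3 at 12.1 ± 1.38 TPM (SD, n = 3). Snrpn, the tissue-restricted relative of Snrpb, was listed at 0. Of 10 LSm genes, most of them for the ring on U6 or its cytoplasmic relative, 9 were detected, led by Lsm4 at 14.5 ± 0.423, Lsm3 at 14.4 ± 1.10 and Lsm7 at 14.3 ± 0.321 TPM. The U7-specific Lsm10 had 12.5 ± 0.747 TPM, while its partner Lsm11 was below 1 TPM in each library at 0.45 ± 0.106.

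All 21 genes for proteins of the major particles were detected. Snrnp70 and Snrpc, which encode U1 proteins, had 29.3 ± 5.34 and 24.6 ± 0.637 TPM (SD, n = 3). Sf3b1, the branch point protein of U2, had 27.6 ± 6.01 TPM and Snrnp27 of the tri-snRNP 25.3 ± 0.756. All 8 genes for minor particle proteins were detected as well, with Zcrb1 at 27.1 ± 0.927, Zmat5 at 11.1 ± 1.32, Zrsr2 at 10.8 ± 0.859 and Snrnp35 at 9.86 ± 0.718 TPM. In the gene table Rnu11 was at 0 and Rnu12 had at most 13 counts, where small effective lengths limit both. Rnu12 had 104, 61 and 133 counts in the read-based table, so levels of these mRNAs and snRNAs are not compared.

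The cytoplasmic steps of snRNA life were represented too. Of 19 genes for export, Sm ring assembly and re-import 17 were detected. The exportin gene Xpo1 had 30.6 ± 6.04 TPM (SD, n = 3), Tgs1, whose enzyme completes the cap, 21.7 ± 4.97, and Strap and Gemin7 of the assembly complex 16.6 ± 0.422 and 11.0 ± 1.33. Gemin4 and Gemin8 of the same complex were below 1 TPM in each library, at 0.707 ± 0.101 and 0.50 ± 0.0361. Of 22 genes for snRNA transcription and 3′ end processing 21 were detected, led by Snapc5 of the promoter-binding complex at 15.99 ± 0.971 and the Integrator genes Ints6 at 9.83 ± 2.23, Ints9 at 8.88 ± 0.918 and Ints12 at 8.34 ± 1.18 TPM, and Zc3h8 was at 0.713 ± 0.104. All 8 genes handling U6 and 7SK were detected, with Usb1, which trims the U6 tail, at 34.9 ± 4.01, Ssb, which binds new U6, at 28.9 ± 1.67, Hexim1, which acts with 7SK, at 12.2 ± 1.39 and Mepce, which caps 7SK, at 6.99 ± 1.17 TPM.

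In replicate 2 the snRNA sum deviated by -1.39 on the log2 scale, whereas the median deviation of these 7 lists lay between -0.02 and 0.16. The deviation is centred on detected protein-coding genes, so a median near 0 is not particular to these lists. The largest downward values were those of Snapc3 at -1.21, Snrnp48 at -0.90 and Rnpc3 at -0.61, all with a mean of 3.00 TPM or less.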

How the data were processed

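Per the labels, each ribosomal-RNA-depleted library started from 1 µg of RNA and was sized to 250 to 400 bases. Per the file headers the deposited gene table (RSEM layout) holds expected counts, TPM, FPKM and posterior means, with matching expected counts and TPM per transcript (alignment-based), and the deposited read-based table (kallisto layout) holds estimated counts and TPM. The deposited FPKM values were not used for results. Annotation is M21 on mm10, per the accompanying text files; the sources used here do not give quantifier versions. Rows naming no gene (0.356%, 0.125% and 0.104% of counts) were left out of totals.

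Families were assigned by local alignment (Biopython 1.88) to named snRNAs at 80% identity and coverage. No named U4, U4atac or U6atac gene was used. Sequences are those of annotation M21. Log2 CPM used a prior of 0.5 counts. Spread came from an intercept-only edgeR 4.0.16 model on rounded expected counts (TMM, filterByExpr, prior degrees of freedom 0); with 2 residual degrees of freedom its median runs low, as tested on simulated data. DESeq2 1.42.0 size factors were an alternative. Values are mean ± SD of 3 libraries. With 1 group no test was made. Libraries differed pairwise by 39.3 to 97.4 chi-square units per degree of freedom, so none is a duplicate.

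The members, lists and rules were chosen with earlier results of these data known. Named genes follow a rule: members with a name, the 15 highest, the top of each family, those nearest the threshold, the 5 most variable, and the 4 highest and all undetected genes of each list. Gm24305, Gm24407, Gm24524, Gm24924, Gm25360, Gm26244, Gm26316, Gm22973, the short copies, host genes, Snapc3, Snrnp48 and Rnpc3 were chosen after their values were seen.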

Additional observations from a re-analysis of the deposited data

How the results depend on the processing

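No paired analysis was possible because all 3 libraries belong to 1 group. Compared with 37 genes in the main count, the read-based table gave 320 snRNA genes. As a share of TPM, snRNA genes held 0.728% against 0.0125% of counts. U1 held 31.5% of snRNA counts, but 47.8% of snRNA TPM and 24.4% of read-based counts. U2 held 66.7%, but 44.8% of TPM and 54.9% of read-based counts. U12 held 0.210%, but 0.549% of TPM and 1.36% of read-based counts, and had 2.06 CPM in the read-based table, against 0.260. The 141-base pair held 1.57%, but 6.72% of TPM, and had 3.25 CPM in the read-based table, against 1.97. The causes were not tested, other than that TPM divides by effective length and the read-based table was made without an alignment file. Leaving out each library in turn gave a median coefficient of variation from 0.00988, without replicate 2, to 0.742, without replicate 3, against 0.593. It gave 34 to 37 genes and a share of counts from 0.0104 to 0.0157%. All other alternatives, namely a count in all 3 libraries (28 genes) or of 10 (27), the alignment-based table, protein-coding counts as the total, genes in no other gene, TMM, 90% identity, another prior, no filter, DESeq2 size factors and, added after seeing the data, posterior means (38 genes), stayed within 1 SD, or 1.5 times for counts of genes and the coefficient of variation, of the values reported. The deviation of the snRNA sum in replicate 2 ranged from -1.41 to -1.36. Of 37 genes, 8 moved by more than 1 SD in the read-based table. Low counts limit Rnu12 and the 4 genes of no family in the gene table, and an effective length of 0 keeps short copies out of it.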
